A study of Mus musculus with 12 samples.

Results

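The Ly6 genes studied here were Ly6a, Ly6c1, Ly6d, Ly6e, Ly6m and Ly6g6c, 6 of the 24906 genes listed in each expression table. These 6 were picked because of how their levels moved when SMAD4 was re-expressed in mouse tumor organoids, so their levels and changes are given as a description, with no test. Ly6 proteins are small surface proteins that share a cysteine-rich domain with the urokinase receptor (uPAR), and most are held on the outer face of the cell membrane by a glycolipid (GPI) anchor rather than by a membrane-spanning segment. Most mouse Ly6 genes stand side by side in a cluster on chromosome 15, with a second group in the class III region of the major histocompatibility complex on chromosome 17. Several are used as markers of blood cell types or of progenitor cells, and in the gut Ly6a (Sca-1) is known as a marker of regenerating, fetal-like epithelium.

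RNA-Seq was performed on tumor organoids, cell clusters grown in culture from macroscopic tumors of Smad4KO;BRAFV600E/+ mice, whose labelled tissue is small intestine. Villin-CreERT2 restricted recombination to the intestinal epithelium, and all groups shared the Smad4 deletion and the activated BRAF allele. Per the labels all organoids also held the lentiviral pINDUCER-SMAD4, from which doxycycline (dox) induces SMAD4, and were selected with puromycin after transduction per the study's methods. Organoids received 4 µg/mL dox or vehicle (untreated) for 48 h, and were kept in BME R1, a basement membrane extract for 3D growth, or on tissue culture plastic without it. In BME there were 3 untreated libraries (lines 682, 700 and 889), 2 dox libraries (lines 700 and 889) and 1 further library of line 682. The plastic samples were 3 untreated and 3 dox libraries of lines 560, 700 and 889. The labels of that further library disagree: its title reads as dox, while its treatment is given as dox with the word mock. A mock plasmid is mentioned in the methods of the study as the alternative to the SMAD4 plasmid during virus production, and the study counts 4 vehicle and 2 dox libraries in BME. The library was therefore kept with the controls of the fit across all genes, called the mock library, and set apart from the dox pairs. The untreated and treated libraries of a line were compared as a pair. The mice had received tamoxifen at 6 to 8 weeks of age, as the methods of the study state. The number of clones in a line is not given in the sources used here, and the p-values measure only the spread between these libraries.

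Levels were deposited as FPKM, in which fragments are scaled to the length of the transcript and the size of the library. Levels of different genes can thus be compared per length. The BME and plastic tables were normalized separately, so levels set side by side across them were not tested. The reads rebuilt from the deposited values numbered 14446566 to 16349726 in each BME library and 16929989 to 20970413 in each plastic library. Smad4, the gene deleted in these mice and supplied by the construct, checked the labels. In BME it was at 6.53 FPKM untreated and 17.2 with dox in line 700, and at 6.23 and 27.3 in line 889. On plastic it went from 1.54 to 73.6 in line 560, from 2.99 to 18.1 in line 700 and from 4.76 to 48.9 in line 889. The mock pair differed little, at 8.88 FPKM untreated and 10.3 in the mock library. The organoids expressed the epithelial genes Epcam (120 to 569 FPKM over the 12 libraries) and Krt8 (929 to 5479 FPKM). The leukocyte gene Ptprc reached at most 0.0958 FPKM and the endothelial gene Pecam1 at most 0.0253 FPKM, and both are defining markers of cells that also carry Ly6 proteins. Of the 6 leukocyte markers Cd68 was the highest, at 6.04 to 16.1 FPKM in BME and 2.70 to 38.7 on plastic, where dox line 889 held the highest level, and Csf1r reached 1.26 FPKM. Of the 6 endothelial markers Tek was the highest, at up to 3.62 FPKM. The part of such cells in the Ly6 levels was not tested. In bulk RNA, fewer cells that express a gene and less of its RNA in each cell cannot be told apart.

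All 6 genes were placed on the mm9 genome (NCBIM37, GENCODE annotation), the build named in the labels. Their order on chromosome 15 is Ly6d (chr15:74592486-74593997, minus strand, 3 exons), Ly6m (chr15:74708766-74712134, minus strand, 3 exons, annotated there as 2010109I03Rik), Ly6e (chr15:74785481-74790335, plus strand, up to 5 exons), Ly6a (chr15:74825308-74828064, minus strand, 3 exons) and Ly6c1 (chr15:74875447-74879260, minus strand, 4 exons). Ly6g6c stands apart on chromosome 17 (chr17:35202333-35206993, plus strand), where it overlaps the annotated gene AU023871. A second annotated entry of Ly6g6c (chr17:35204270-35206995, plus strand) overlaps no other gene. The Ly6g6c promoter window below is on another build and was not matched to either entry. The RefSeq promoter table, which spans 300 bases around each annotated start site, held 2 of the 6 genes, Ly6c1 and Ly6g6c. They are shown because Ly6c1 was lower with dox in every line while Ly6g6c was near the limit of detection, and because SMAD proteins are known to bind the short motif GTCTG. Capitals mark matches to that motif on either strand in these 300 bases, written in the direction of transcription from GRCm38.p6.
Ly6c1 (chr15:75048614-75048913, minus strand): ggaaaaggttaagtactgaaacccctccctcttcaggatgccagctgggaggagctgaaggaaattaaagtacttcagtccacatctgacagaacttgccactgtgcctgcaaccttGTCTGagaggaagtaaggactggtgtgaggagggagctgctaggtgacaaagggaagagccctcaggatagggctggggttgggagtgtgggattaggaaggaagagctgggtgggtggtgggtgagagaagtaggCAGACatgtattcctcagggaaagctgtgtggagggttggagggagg
Ly6g6c (chr17:35067075-35067374, plus strand): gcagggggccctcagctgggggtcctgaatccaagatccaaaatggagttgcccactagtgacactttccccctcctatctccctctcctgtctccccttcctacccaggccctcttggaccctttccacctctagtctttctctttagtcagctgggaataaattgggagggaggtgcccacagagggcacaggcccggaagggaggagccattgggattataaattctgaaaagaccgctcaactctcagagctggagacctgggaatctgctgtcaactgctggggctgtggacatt
In Ly6c1 the matches began 133 bases before the start site and at base 4 after it. A second annotated start of Ly6c1 lies further upstream, and its window (chr15:75048788-75049087) overlaps the printed one. Its 1 match, at base 42 after that start, is the same site as the match 133 bases before the first start. No match to GTCTG was found in the Ly6g6c window. The motif is common, with a match on either strand in 49.5% of 32544 promoters of this length. Neither gene matched the SMAD palindrome GTCTAGAC (0.215% of promoters), the GC-rich SMAD motif GGCGC or its complement (37.1%), the AP-1 motif TGANTCA (7.79%) or the core of the interferon response element (3.45%), all searched on both strands. A match describes the letters in the window and is not evidence of binding.

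In untreated organoids the 6 genes covered more than 3 orders of magnitude and kept the same order of median level in both environments. Ly6e, a broadly expressed family member induced by retinoic acid and interferon and a receptor for the placental fusion protein syncytin-A, was the most abundant. Its untreated levels were 1209 FPKM (line 682), 1769 (line 700) and 1466 (line 889) in BME, and 3709 (line 560), 2433 (line 700) and 2530 (line 889) on plastic. On plastic it ranked 18 to 21 among all genes in the untreated libraries. Ly6a was next at 376 to 1059 FPKM in BME and 1625 to 3184 on plastic, followed by Ly6c1 at 13.3 to 469 and 172 to 2056 FPKM. Ly6c1 encodes an antigen widely used to sort monocytes and also found on endothelium and T cells. Ly6d, known from keratinocytes and early lymphoid cells, lay at 15.4 to 66.6 FPKM in BME and 10.6 to 66.4 on plastic. Ly6m was at 0.740 to 5.25 and 1.17 to 2.17 FPKM, and Ly6g6c at 0.165 to 1.65 and 0.764 to 2.61 FPKM. The ranges of neighbours in this order overlapped except between Ly6e and Ly6a in BME, between Ly6c1 and Ly6d on plastic, and between Ly6d and Ly6m in both environments. Within each untreated library Ly6e exceeded Ly6a and Ly6a exceeded Ly6c1, whereas Ly6c1 exceeded Ly6d in 1 of 3 BME libraries and in 3 of 3 on plastic.

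**Figure D1:**
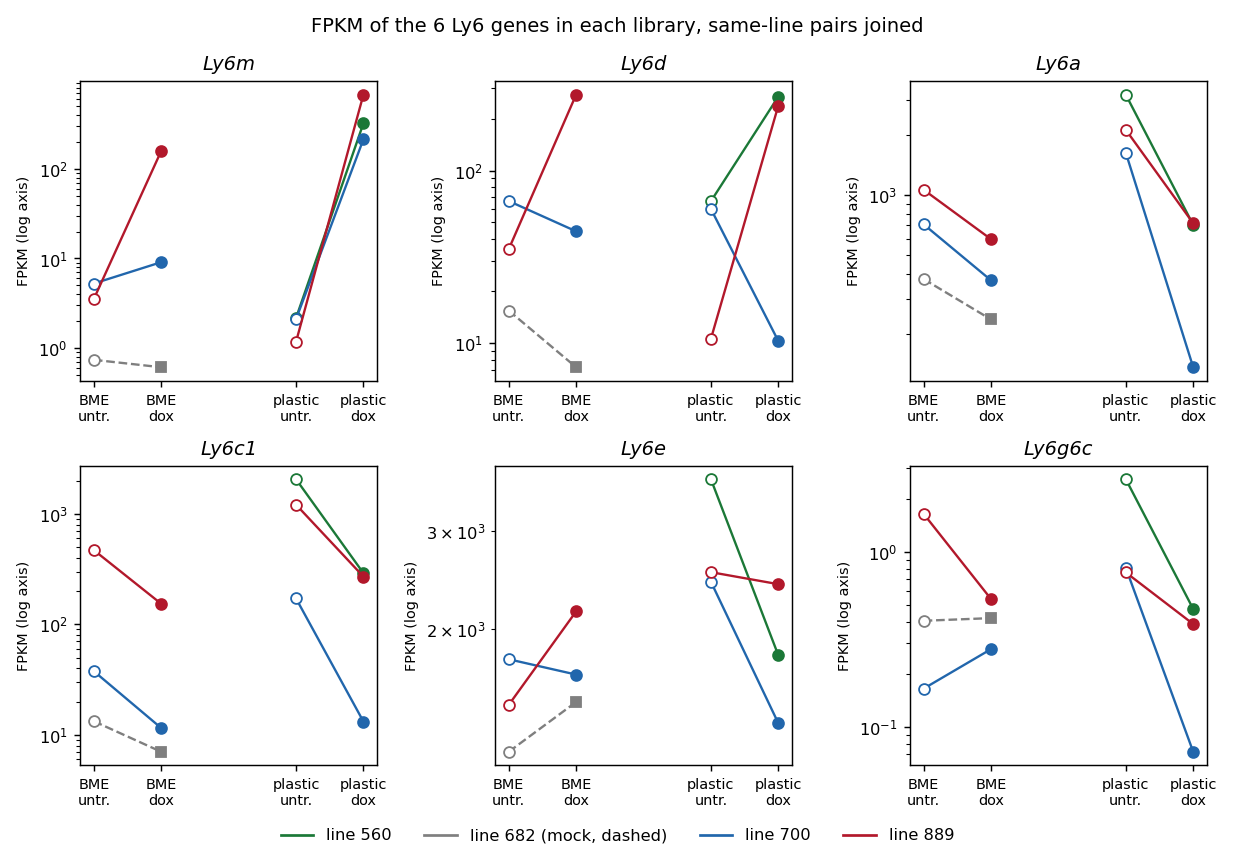
FPKM (log axis, a separate scale for each gene) of the 6 Ly6 genes in every library, with open points for untreated, filled points for dox and a gray square for the mock library of line 682 (drawn at the dox position). Lines join libraries of the same organoid line; Ly6m reaches 214 to 673 FPKM with dox on plastic, while Ly6a lies lower in every treated library than in its partner.

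Across the 5 dox pairs, Ly6m was higher with dox in all 5, Ly6a and Ly6c1 were lower in all 5, and the other 3 genes differed between lines or environments. Of the 11977 genes tested in both environments, 8.7% were higher in all 5 pairs and 8.06% were lower in all 5. In BME alone 27.2% of genes were higher and 29.5% lower in both pairs, and on plastic alone 18.6% were higher and 18.7% lower in all 3. Since the 6 genes were chosen on this contrast, nothing is read from their count against these shares.

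Ly6m, a little-studied member of the cluster, was nearly silent in untreated organoids on plastic and abundant with dox. Its plastic levels were 2.17 FPKM untreated and 322 with dox in line 560, 2.10 and 214 in line 700, and 1.17 and 673 in line 889. These are ratios of 149, 102 and 573, and the rebuilt reads behind them went from 80 to 11986, from 74 to 6498 and from 44 to 19057. Every dox library on plastic therefore lay far above every untreated library. The mean change of log2(FPKM + 1) was 7.02 ± 1.12 (SD, n = 3 pairs), a scale that understates the change of a gene at such a low starting level. In BME the response was uneven, with 3.53 FPKM untreated and 158 with dox in line 889 but 5.25 and 9.10 in line 700. The ratios were 44.9 and 1.73, and the mean change was 2.91 ± 3.14 (SD, n = 2 pairs). Both BME dox libraries still lay above all 4 control libraries, which held 0.612 to 5.25 FPKM. In the mock pair Ly6m was at 0.740 FPKM untreated and 0.612 in the mock library (20 and 16 reads). Line 889 had the highest dox level in both environments and line 700 the lowest. On plastic the 3 dox libraries stood at the 97.1 to 99.2 percentile of detected genes for Ly6m, against 33.4 to 39.9 for the untreated ones.

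Ly6a was lower with dox in every line. On plastic it was at 3184 FPKM untreated and 705 with dox in line 560, 1625 and 135 in line 700, and 2119 and 718 in line 889. All dox libraries lay below all untreated libraries there, at 0.221, 0.0834 and 0.339 of their untreated partners, and the mean change was -2.44 ± 1.03 (SD, n = 3 pairs). In BME it was at 709 FPKM untreated and 371 with dox in line 700, and 1059 and 597 in line 889. The mean BME change was -0.88 ± 0.08 (SD, n = 2 pairs), and without the pairing the BME difference was -0.11. The dox libraries overlapped the controls because line 682 had a lower level throughout. In the mock pair of line 682 Ly6a was at 376 FPKM untreated and 236 in the mock library, a change of -0.67 beside -0.93 and -0.83 in the BME dox pairs. Even at its lowest, 135 FPKM in line 700 on plastic with dox, Ly6a remained at the 95.2 percentile of detected genes.

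Ly6c1 moved with Ly6a in direction and differed more between lines. On plastic it was at 2056 FPKM untreated and 291 with dox in line 560, 172 and 13.2 in line 700, and 1210 and 271 in line 889. The line 700 untreated level was thus below the dox level of the other lines, and the groups overlapped although each pair was lower with dox. The mean change on plastic was -2.86 ± 0.72 (SD, n = 3 pairs). In BME Ly6c1 was at 37.7 FPKM untreated and 11.5 with dox in line 700, and at 469 and 153 in line 889. Both pairs gave nearly the same change, -1.63 and -1.61, from starting levels that differed widely. Without the pairing the BME difference turns direction, to 0.21, because line 889 was high with and without dox while the control arm also holds line 682 at 13.3 and 7.04 FPKM. The mock pair was lower as well, by -0.83 on the log2(FPKM + 1) scale. Ly6c1 shares 48.1% of the 31-base words of its transcript with its close copy Ly6c2, so the split of reads between them is uncertain. Ly6c2 was itself listed at no more than 0.359 FPKM in any library. Ly6a shares 17.4% of its words with other genes, most with Ly6i (7.86%), which reached 0.515 FPKM at most.

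**Figure D2:**
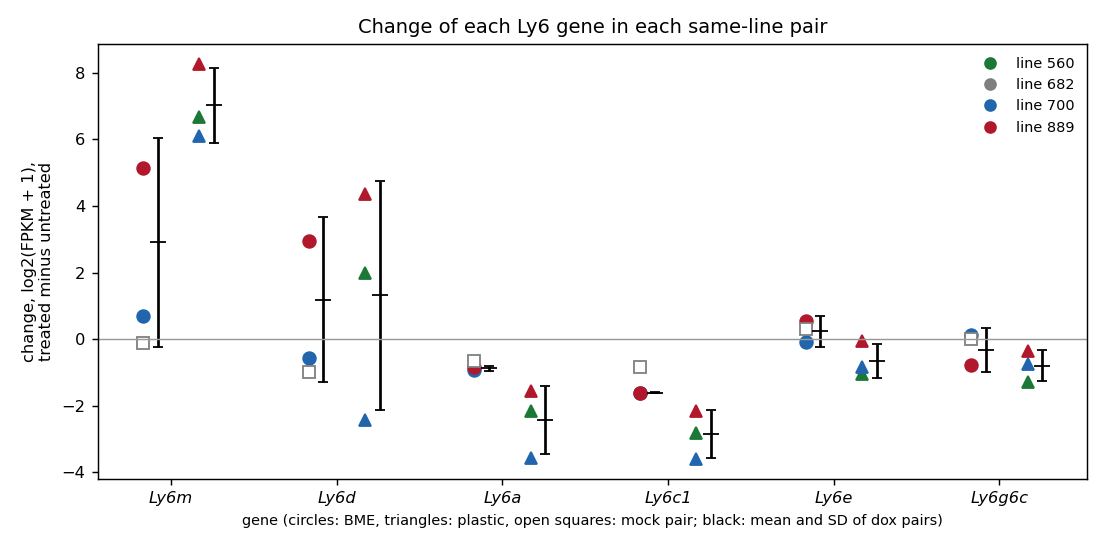
Change of log2(FPKM + 1), treated minus untreated, of each Ly6 gene in each same-line pair (circles BME, triangles plastic, open squares the mock pair), with the mean and SD of the dox pairs in black. Ly6m lies above 0 in all 5 dox pairs and Ly6a and Ly6c1 below 0 in all 5, while Ly6d lies on both sides in both environments.

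Ly6d responded in opposite directions in different lines. In line 889 it was at 35.0 FPKM untreated and 275 with dox in BME, and at 10.6 and 238 on plastic. In line 560, grown on plastic only, it was at 66.4 and 268 FPKM. Line 700 went the other way, from 66.6 to 44.4 FPKM in BME and from 59.9 to 10.3 on plastic. The dox and untreated ranges therefore overlapped in both environments, and the mean changes of 1.18 ± 2.48 (SD, n = 2 pairs) in BME and 1.31 ± 3.45 (SD, n = 3 pairs) on plastic were smaller than the spread between lines. Leaving out line 889 turned both means below 0, to -0.57 in BME and -0.22 on plastic. The pattern of Ly6d, lower in both line 700 pairs and higher in the other 3, was shared by 1.71% of the 11977 genes. The mock pair was at 15.4 FPKM untreated and 7.25 in the mock library. Ly6d has no 31-base word in common with another gene.

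Ly6e stayed abundant in every library. In BME it was at 1769 FPKM untreated and 1661 with dox in line 700, and at 1466 and 2153 in line 889. The mean BME change was 0.23 ± 0.46 (SD, n = 2 pairs), and leaving out line 889 turned it to -0.09. On plastic it was at 3709 FPKM untreated and 1798 with dox in line 560, 2433 and 1360 in line 700, and 2530 and 2409 in line 889. Each plastic dox library lay below each untreated library, but only narrowly, as the highest dox level was 2409 and the lowest untreated level 2433 FPKM. The mean change on plastic was -0.65 ± 0.51 (SD, n = 3 pairs), and the change in line 889 was -0.07. The mock library was above its partner, at 1484 against 1209 FPKM. Whether the Ly6e change differed between environments was not tested.

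Ly6g6c, the member on chromosome 17, was close to the limit of detection, with 1 to 44 rebuilt reads per library. On plastic it was at 2.61 FPKM untreated and 0.472 with dox in line 560, 0.811 and 0.0721 in line 700, and 0.764 and 0.387 in line 889. The reads behind these values went from 44 to 8, from 13 to 1 and from 13 to 5. The exact 95% Poisson intervals, which cover counting error only, were 1.89 to 3.50 FPKM untreated and 0.204 to 0.930 FPKM with dox in line 560. In line 700 they were 0.432 to 1.39 and 0.00183 to 0.402 FPKM, and in line 889 they were 0.407 to 1.31 and 0.126 to 0.904 FPKM. The intervals describe the reads of single libraries and are no test of dox, since Ly6g6c was chosen on this contrast. In BME it was at 0.165 FPKM untreated and 0.278 with dox in line 700 (2 and 3 reads), and at 1.65 and 0.538 in line 889 (22 and 7 reads). The mean changes were -0.33 ± 0.65 (SD, n = 2 pairs) in BME, which turned to 0.13 without line 889, and -0.80 ± 0.47 (SD, n = 3 pairs) on plastic. With a pseudocount of 0.1 the plastic mean was -1.82. A change in BME was not detectable in line 700 at this depth. In BME line 889 the Poisson intervals were 1.03 to 2.50 FPKM untreated and 0.216 to 1.11 FPKM with dox, and a change was not tested.

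On plastic, 1 of the 6 genes had all dox libraries above all untreated libraries (Ly6m) and 3 had them all below (Ly6a, Ly6e and Ly6g6c). Of the 12333 genes tested there, 7.87% lay entirely above and 7.26% entirely below. In BME only Ly6m among the 6 was separated in this way, above the controls, which held for 6.33% of 12996 genes, and 5.83% lay entirely below. These separations belong to the contrast that chose the genes and are given as a description.

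The balance of the Ly6 transcripts differed with dox on plastic. Without dox the ratio of Ly6a to Ly6m was 1470 in line 560, 773 in line 700 and 1805 in line 889, and with dox it was 2.19, 0.634 and 1.07. In BME the ratio went from 135 to 40.8 in line 700 and from 300 to 3.77 in line 889, while the mock pair of line 682 held 508 and 385. Line 700 on plastic with dox was the only library in which Ly6m exceeded Ly6a. As shares of the summed FPKM of the 6 genes on plastic, Ly6m took at most 0.0490% without dox and 9.52 to 15.6% with it. Ly6a took 35.3 to 37.9% without dox and 7.82 to 20.8% with it. Ly6c1 took 4.00 to 22.8% and then 0.762 to 8.59%. Ly6e made up 41.1 to 85.5% of the sum over the 12 libraries. The 6 genes together held 0.751 to 1.28% of the library's FPKM in untreated organoids on plastic, 0.264 to 0.698% with dox, and 0.260 to 0.563% over the BME libraries.

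**Figure D3:**
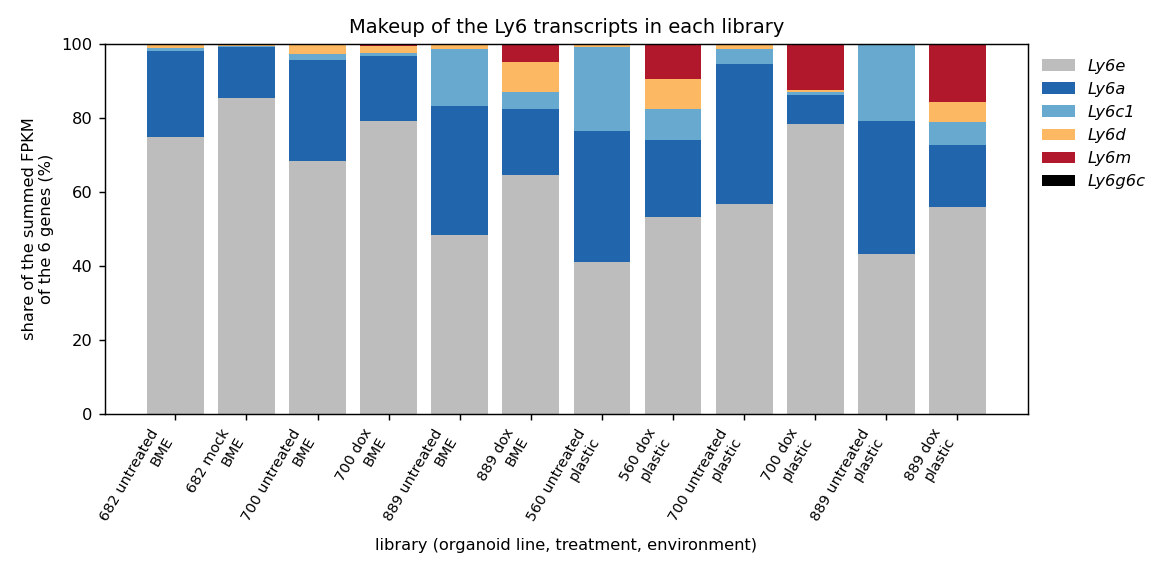
Share of the summed FPKM of the 6 Ly6 genes (percent, bars starting at 0) taken by each gene in each of the 12 libraries. Ly6m holds 9.52 to 15.6% of the sum in the plastic dox libraries and at most 0.0490% in their untreated partners.

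The whole chromosome 15 cluster from Psca to Gpihbp1 spans 883 kb and holds 26 annotated genes, of which 23 were matched in the tables and 15 had a mean of at least 0.5 FPKM in BME or on plastic. Among these, Lynx1, Gml, Gml2 and Ly6m were higher in all 5 dox pairs, and Ly6a, Ly6c1, Ly6f and 9030619P08Rik were lower in all 5, where 8.7% and 8.06% of all genes were. Gml and Gml2, neighbours on opposite strands that share 29.2% and 36.6% of their 31-base words with each other, lay next to each other on the side of Ly6m. On plastic Gml was at 0.711 FPKM untreated and 1.93 with dox in line 560, 3.68 and 6.92 in line 700, and 0.642 and 5.92 in line 889. Lynx1, which encodes a membrane-tethered modulator of nicotinic acetylcholine receptors, had mean changes of 0.65 in BME and 0.46 on plastic. The mock pair was higher for Lynx1 as well, by 0.30. On the other side, Ly6g, the granulocyte antigen, was lower in 4 of 5 pairs. Its plastic levels were 31.2 FPKM untreated and 13.2 with dox in line 560, 4.13 and 0.606 in line 700, and 6.24 and 1.63 in line 889. Psca, the prostate stem cell antigen at the other end of the cluster, was lower in 4 of 5 pairs but went from 3.20 to 52.1 FPKM in line 889 in BME. In chromosomal order, the genes with positive mean changes in both environments (Lynx1, Ly6d, Gml, Gml2 and Ly6m) came before Ly6e, and those with negative mean changes in both (Ly6a, Ly6c1, Ly6g, Ly6f and 9030619P08Rik) came after it. Some of these signs rest on line 889: without it the mean change of Ly6d was -0.57 in BME and -0.22 on plastic. The BME changes of Ly6g were 0.16 in line 700 and -2.59 in line 889. Among genes before Ly6e, Psca, Them6, Slurp2 and Ly6k had mean changes of opposite sign in BME and on plastic, although those of Them6 and Ly6k in BME were near 0 (0.03 each) and turned negative when libraries were scaled to the same total FPKM. These are 15 genes of 1 region whose order was noticed after their values were seen, and 5 of them were chosen for their change, so no test is given.

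**Figure D4:**
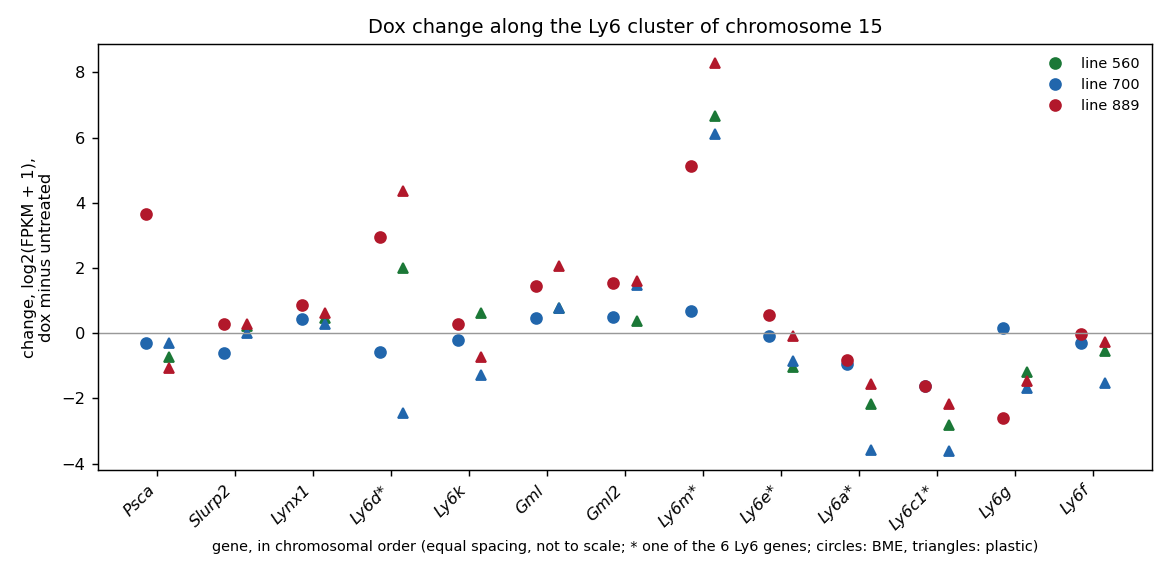
Change of log2(FPKM + 1), dox minus untreated, of the expressed Ly6/uPAR genes of the chromosome 15 cluster in each dox pair (circles BME, triangles plastic), in chromosomal order with equal spacing. Points from Lynx1 to Ly6m lie mostly above 0 with the exception of Ly6k and of Ly6d in line 700, and points from Ly6a to Ly6f lie below 0 except for Ly6g in line 700 in BME.

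The other Ly6/uPAR family genes were not chosen one by one for their response, although the list was written with earlier results of these data known. Of 37 listed, 18 were tested in BME and 14 on plastic with limma, and 0 passed an adjusted p under 0.05 with an absolute change over 1 in either environment, as with limma-voom on rebuilt reads. Before adjustment 3 passed p under 0.05 with a change over 1 in BME (Lypd3, Gml and Gml2, all higher; 0.954% of all genes passed) and 2 on plastic (Lypd3 and Gml2, both higher; 3.64% of all genes). With the line as a replicate block 6 of 14 passed this on plastic, as did 623 of 12333 genes: Lypd3, Gml, Gml2 and Plaur were higher and Ly6g and Lypd5 lower, with 0 past the adjusted p. On plastic 1 of 14 passed it with limma-voom (583 of 12333 genes) and 1 of 31 without the filter on low values (383 of 19071 genes). In BME 2 of 18 passed it with the block (157 of 12996 genes). The background for these calls is small, since limma called 3 genes in BME (0.0231% of 12996, all higher) and 4 on plastic (0.0324% of 12333, with 0.0243% higher and 0.00811% lower). With the organoid line as a replicate block it called 0 in BME, against 157 genes at an unadjusted p under 0.05 and an absolute change over 1, and 7 on plastic. Direction varied with the processing: with a pseudocount of 0.1 the 1 gene called in BME was lower, and on plastic 5 were higher and 5 lower. With limma-voom 4 were higher and 7 lower on plastic. The median change over the family was 0.33 in BME, against -0.01 over all genes tested, and 0.13 on plastic, against 0.01. Lypd3 (C4.4A), a relative of the urokinase receptor found on stratified epithelium, had the lowest adjusted p of the list on plastic. Its plastic levels were 3.25 FPKM untreated and 22.3 with dox in line 560, 0.886 and 44.9 in line 700, and 6.10 and 40.5 in line 889. The fitted change of Lypd3 on plastic was 3.20 (SE 0.52, limma adjusted p = 0.162), and in BME it was 1.49 (SE 0.35, limma adjusted p = 0.959), and 2.66 with a pseudocount of 0.1. Lypd3 was higher in 5 of 5 dox pairs, and the mock library was also above its untreated partner, at 0.794 against 0.0854 FPKM. Plaur, the urokinase receptor itself, was also higher in 5 of 5 dox pairs and reached 1577 FPKM in line 700 on plastic from 381 untreated. Its fitted change on plastic was 1.38 (SE 0.61, limma adjusted p = 0.617), and it was 0.87 without dox line 700. For Plaur too the mock library was above its untreated partner, at 56.9 against 47.0 FPKM. Lypd5 was lower in 5 of 5 pairs, on plastic from 35.3 to 2.96 FPKM in line 560, from 327 to 168 in line 700 and from 81.3 to 3.22 in line 889. The change of Lypd5 on plastic was -2.81 (SE 1.58, limma adjusted p = 0.701). Lypd8, a secreted barrier protein of the gut epithelium that binds flagellated bacteria, was at 811 FPKM untreated and 84.0 with dox in line 889 in BME, and 112 and 49.9 in line 700. The mock pair of line 682 was lower too, at 29.1 and 5.07 FPKM. On plastic Lypd8 was at 34.3 FPKM untreated and 48.8 with dox in line 560, at 0.178 and listed at 0 in line 700, and at 0.0557 and 6.22 in line 889, so 2 of 3 pairs ran the other way. The other tested family genes, Ly6k, Ly6g5b, Ly6g6d, Ly6g6e, Slurp2, Lypd6b, Pinlyp and Spaca4, had mean pair changes between -0.47 and 0.44 in the environments where they were tested.

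Ly6a and Ly6e are interferon-inducible in many cells, Ly6a marks regenerating epithelium and Ly6d squamous cells, so genes of these programs were set beside them. In each of these lists limma called 0 genes in both environments. In the interferon list, 5 of 24 tested genes were higher on plastic at an unadjusted p under 0.05 and an absolute change over 1, and 0 of 29 passed this in BME, against 3.64% and 0.954% of all genes. The median change on plastic was 0.79, against 0.01 over all genes, and 13 of 24 genes were higher in every pair, against 18.6% of all genes. Irf7, a master regulator of type I interferon, had a change of 2.17 on plastic (SE 0.61, limma adjusted p = 0.454), and Ifit3 one of 1.89 (SE 0.80, limma adjusted p = 0.606). In the 2 BME dox pairs the median over the list was -0.39, and 17 of 29 genes were lower in both pairs, against 29.5% of all genes. Without the pairing 22 of the 29 had a positive BME change (Oasl1 1.06 and Isg15 1.02, limma adjusted p = 0.959 each), and with it Oasl1 was at 0.10 and Isg15 at -0.23. In the regenerative epithelium list 15 genes were tested, with a median change of 0.10 in BME and -0.28 on plastic, and at an unadjusted p under 0.05 and an absolute change over 1 limma gave 1 higher in BME (0.954% of all genes passed) and 0 on plastic (3.64%). Over the same-line pairs the BME median was -0.02. The largest unpaired changes in BME were those of Spp1 (-1.67, and -2.02 over pairs) and Krt7 (1.21, and 0.83 over pairs), and on plastic that of Il33 (1.25). In the squamous list the median change was 0.57 over 8 genes in BME and -0.30 over 11 on plastic, where 2 genes were lower at an unadjusted p under 0.05 and an absolute change over 1 (0 in BME), against 3.64% and 0.954% of all genes. The BME median over pairs was 0.27. The largest unpaired changes in BME were those of Krt4 (1.22) and Sfn (0.68), which were 0.41 and 0.25 over pairs, and Sprr2h on plastic was at 1.94 (0.76 without dox line 889). Sprr1a, a cornified envelope protein also induced in the injured gut, had a change of -2.87 on plastic (SE 0.75, limma adjusted p = 0.412).

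Likeness of pattern was measured as Pearson's r of log2(FPKM + 1), centered within each environment, over the 12 libraries and 11977 genes. The libraries share lines and environments, so r is a description and gives no measure of chance. Ly6a was most like Sprr1a (r = 0.94, Spearman's rho = 0.85), Pax8 (r = 0.93) and Cdkn2a (r = 0.93). Ly6c1 was most like Serpinb11 (r = 0.94) and Tnfaip2 (r = 0.94). Ly6m was most like Tcim (r = 0.96, rho = 0.97), followed by Ube2l6 (r = 0.96), an enzyme that conjugates ISG15 to proteins, and B2m (r = 0.96), the invariant chain of MHC class I. Ly6d was most like Nrarp (r = 0.91), a target and feedback inhibitor of Notch signaling, then Fam3b (r = 0.89) and Rabl6 (r = 0.86). Ly6e followed Timm10 (r = 0.89), Edem2 (r = 0.87) and Ctu2 (r = 0.85). Ly6g6c, at its few reads, followed Smarcb1, Tysnd1 and Actr5 (r = 0.91 each, rho = 0.83, 0.70 and 0.93). Among the 6 genes, Ly6a and Ly6c1 were the most alike (r = 0.88, rho = 0.80), followed by Ly6c1 and Ly6g6c (r = 0.79, rho = 0.64), Ly6a and Ly6e (r = 0.78, rho = 0.69) and Ly6a and Ly6g6c (r = 0.77, rho = 0.73). Ly6d and Ly6m gave r = 0.62 (rho = 0.59). The lowest r was that of Ly6a with Ly6m (r = -0.50, rho = -0.55) and the lowest rho that of Ly6g6c with Ly6m (r = -0.48, rho = -0.59).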

How the data were processed

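Reads were quantified by the authors with kallisto, and DESeq2 was their test of dox against vehicle; versions are not given in the sources used here, and the labels name mm9. The authors deposited FPKM values in 1 table per environment, normalized separately, and a mean normalized count per gene (a signal over 6 libraries) in their comparison tables. The other columns of those tables (fold change, standard error, Wald statistic, p and adjusted p) were not used. Reads were rebuilt from the deposited FPKM and mean normalized count, and 87.7 to 90.1% of low values per library (normalized count up to 5) came out whole within 0.03, so these reads describe depth and counting error only.

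Values were analysed as log2(FPKM + 1). Genes with a mean of at least 0.5 FPKM were tested with limma 3.58.1 (two-sided, lmFit and then eBayes with a trend; R 4.3.3), dox against control within each environment (2 against 4 libraries in BME, 3 against 3 on plastic) with no block, and called where the Benjamini-Hochberg adjusted p was under 0.05 with a change above 1 in size. The procedure was tested on simulated data. Same-line pairing comes from the line numbers in the labels: deviations from the group means correlated at 0.18 to 0.66 within the 6 pairs. No 2 libraries held identical values.

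The 6 genes and the gene lists were chosen with earlier results of these data known. Lists were written from general knowledge. Named beside the 6 genes were family genes with a mean of at least 0.5 FPKM in either table, the 2 tested genes of each comparison list with the largest change per environment, the 3 genes most like each Ly6 gene, chromosomal neighbours and Smad4. One gene chosen by this rule is not reported here. Cell type markers served to check the tissue, and their levels summed to 4156 to 17363 FPKM for epithelium (7 genes), 3.69 to 39.3 for leukocytes (6 genes, mostly Cd68), 0.133 to 4.14 for endothelium (6 genes) and 0.114 to 5.41 for fibroblasts (6 genes). Alternatives were another pseudocount, no filter, 2 scalings, a line block, limma-voom on rebuilt reads and leaving out each library.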

Additional observations from a re-analysis of the deposited data

Results flagged for a closer look

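Some Ly6 values stood apart from the rest of their group. Among the 4 control libraries in BME, Ly6c1 in untreated line 889 was at 469 FPKM, and its distance to the next library made up 0.934 of the group's range, past the gap set by Dixon's 95% value for 4 samples. Ly6g6c in the same library was at 1.65 FPKM (22 rebuilt reads), with a gap of 0.83 of the range. This served as a screen and not as a test: 2 of the 4 libraries are of line 682, the genes were chosen on these values, and Ly6c1 in line 889 was also high with dox (153 FPKM). Even with independent samples chance gives about 1 such group in 20, and 6 genes were examined.

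Ly6d moved in opposite directions in lines 700 and 889. Its mean change over both environments was -1.50 in line 700 and 3.65 in line 889. The difference between the lines was not tested, since each line has 1 pair per environment.

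The mock pair of line 682 lies outside the dox comparison, yet it was lower for Ly6a by -0.67 and for Ly6c1 by -0.83 on the log2(FPKM + 1) scale, the direction of both BME dox pairs. It is a single pair, and its Smad4 level was 8.88 FPKM in the untreated and 10.3 in the mock organoids.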

How the results depend on the processing

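limma called 3 genes in BME and 4 on plastic. In BME the count was 1 with a pseudocount of 0.1, 1 with limma-voom and 0 with line as a replicate block, and 0 to 37 when 1 library was left out (37 without dox line 700, 0 without any other library). On plastic it was 10 with a pseudocount of 0.1, 0 without the filter (383 genes at an unadjusted p under 0.05 and an absolute change over 1), 7 with the block and 11 with limma-voom, and 0 to 55 when 1 library was left out (55 without dox line 700, 2 without dox line 889, 0 without any other). The other family genes gave 0 calls under every alternative run. Of 661 alternative values for 61 results, 598 kept direction and side of the threshold or moved little. In BME the line block (pairing) turned the change to -0.16 for Ly6f, -0.17 for Slurp2, -0.40 for Lypd5, -0.24 for Lypd6b, -2.21 for Lypd8, 0.15 for Pinlyp and -0.23 for Isg15. Scaling to total FPKM turned Ly6g5b (-0.021), Lypd6b (-0.013) and Lypd8 (-0.015) in BME. The block changed no call of a named gene.

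Without 1 BME library the change ranged from -0.19 to 0.84 for Ly6f, -0.64 to 0.44 for Ly6g, -0.48 to 0.62 for Ly6k, -0.19 to 0.22 for Ly6g5b, -0.17 to 0.65 for Ly6g6d, -0.18 to 0.74 for Slurp2, -0.80 to 1.46 for Lypd5, -0.21 to 0.26 for Lypd6b, -1.09 to 1.26 for Lypd8 and -3.76 to 0.42 for Spp1. On plastic it ranged from -0.32 to 0.36 for Ly6g6d, -0.12 to 0.75 for Ly6g6e, -0.39 to 2.67 for Lypd8 and -0.57 to 0.02 for Spaca4. Changes that moved by over 1.5 times without turning included, on plastic, Ly6g (-2.37 to -0.64), Lypd5 (-4.60 to -1.89), Plaur (0.87 to 2.06), Il33 (0.53 to 1.87) and Sprr2h (0.76 to 2.65), and in BME Oasl1 (0.22 to 1.91), Isg15 (0.52 to 1.55), Krt4 (0.54 to 1.90) and Sfn (0.26 to 1.10). Lypd3 in BME was at 2.99 with limma-voom. Without dox line 700 Ifit3 passed on plastic (2.88, limma adjusted p = 0.0180).

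For the 6 Ly6 genes, leaving out line 889 turned the mean pair change of Ly6d, and of Ly6e and Ly6g6c in BME: without 1 line it ranged from -0.57 to 2.94 (Ly6d, BME), -0.22 to 3.18 (Ly6d, plastic), -0.091 to 0.55 (Ly6e, BME) and -0.79 to 0.13 (Ly6g6c, BME). The unpaired BME difference was 0.21 for Ly6c1 and -0.11 for Ly6a. With a pseudocount of 0.1 Ly6g6c on plastic was at -1.82. The causes were not tested. Ly6g6c rested on 1 to 44 reads per library.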
